A study of Mus musculus with 2 samples.

Results

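The m6A readers and erasers are proteins that bind or remove N6-methyladenosine (m6A), the most common internal mark of mammalian messenger RNA. METTL3 and METTL14 write the mark as a heterodimer, in which METTL14 holds the RNA. Readers with a YTH domain then act in the nucleus on splicing and export or in the cytoplasm on decay and translation, while the dioxygenases FTO and ALKBH5 take the mark off. Their transcripts were followed here in whole mouse uterus on gestational day 4, when the uterus becomes receptive to the blastocyst. The 9 genes were taken by symbol from the deposited tables: the cytoplasmic readers Ythdf1, Ythdf2 and Ythdf3, the nuclear reader Ythdc1, the helicase Ythdc2, the proposed readers Igf2bp2 and Hnrnpa2b1, and the erasers Fto and Alkbh5. All 9 were found among 31053 listed genes.

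A single library came from Mettl14 d/d uterus and a single one from Mettl14 f/f uterus. The labels give the alleles only as d/d and f/f and name neither a Cre driver, nor the deleted exons, nor the number or age of the animals. Tissue was dissociated enzymatically, and transcripts were counted as unique molecular identifiers (UMIs) from 3′ tags. The deposited tables held 6661 d/d and 8164 f/f barcodes, with 44745031 and 55080123 UMIs. Filtering left 5977 d/d cells with a median of 5217 UMIs and 7095 f/f cells with a median of 6085 UMIs. The libraries shared 8 barcode sequences, all of them kept.

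The 7 cell classes with at least 100 cells in each library were compared: stroma (1706 d/d and 4564 f/f cells), epithelium (147 and 178), smooth muscle (1478 and 446), pericytes (1193 and 378), blood endothelium (603 and 487), macrophages or monocytes (293 and 230) and dendritic cells (151 and 168). Each of the 10 stromal, 10 epithelial and 10 smooth muscle markers and of the 11 macrophage markers had UMIs in its own class in both libraries. Mettl14 itself had 2.45 CPM (UMIs per 1000000 UMIs of the class) in d/d stroma, against 14.6 CPM in f/f stroma. Its levels were 4.80 and 19.9 CPM in d/d and f/f epithelium, 2.53 and 18.9 CPM in smooth muscle, 4.26 and 13.4 CPM in pericytes, and 7.21 and 16.4 CPM in macrophages or monocytes. In blood endothelium it had 18.3 CPM in d/d cells and 18.7 CPM in f/f cells, and in dendritic cells 4 d/d and 3 f/f UMIs. Since the deleted exons are not given, it cannot be said whether the 3′ tags lie within them, so these values are no strict check of the genotype.

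With 1 library per genotype, no test across animals was possible. Levels are given in CPM with exact Poisson intervals, and ratios of CPM with conditional exact intervals, all at 95%, which cover counting error only and neither animal nor library variation. A gene counted as past the threshold in a class at a 1.5-fold ratio of CPM with at least 50 UMIs in the library where it was higher, and "rose" or "fell" is used only of such genes. Of the 63 pairs of a member and a class, 48 had those UMIs, and 5 passed the 1.5-fold ratio. Over all genes, 33.2% of gene and class pairs with enough UMIs did so. Ythdf2 rose in epithelium, Ythdc1 rose in pericytes, Igf2bp2 rose in stroma and fell in epithelium, and Alkbh5 fell in epithelium. In smooth muscle and in blood endothelium 8 members had enough UMIs and none passed, where 25.3% and 22.4% of all genes with enough UMIs did. In macrophages or monocytes and in dendritic cells only 3 members had enough UMIs and none passed, where 48.3% and 38.1% of such genes did. Fto in both of these classes and Alkbh5 in dendritic cells had ratio intervals below 1 but were under the floor.

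**Figure D1:**
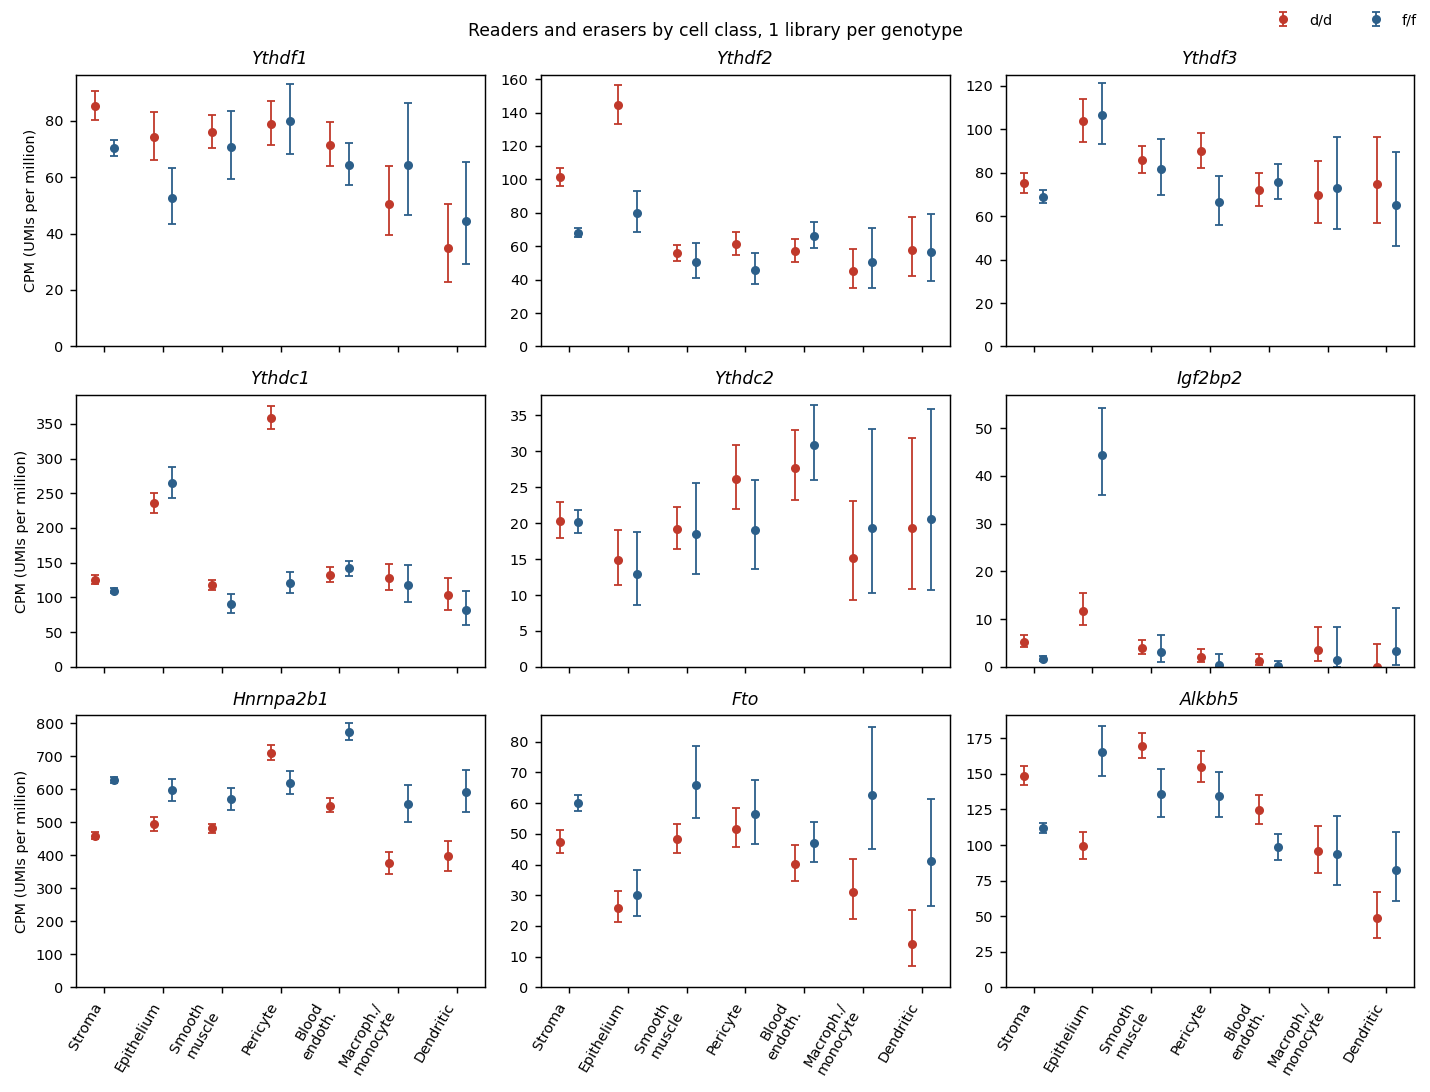
CPM of each of the 9 genes (y axis, linear, from 0) in the 7 compared cell classes (x axis), with d/d in red at the left and f/f in blue at the right of each pair; bars are exact 95% Poisson intervals and cover counting error only. Ythdc1 in d/d pericytes (359 CPM), Ythdf2 in d/d epithelium (145 CPM) and Igf2bp2 in f/f epithelium (44.4 CPM) stand out from the other classes.

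**Figure D2:**
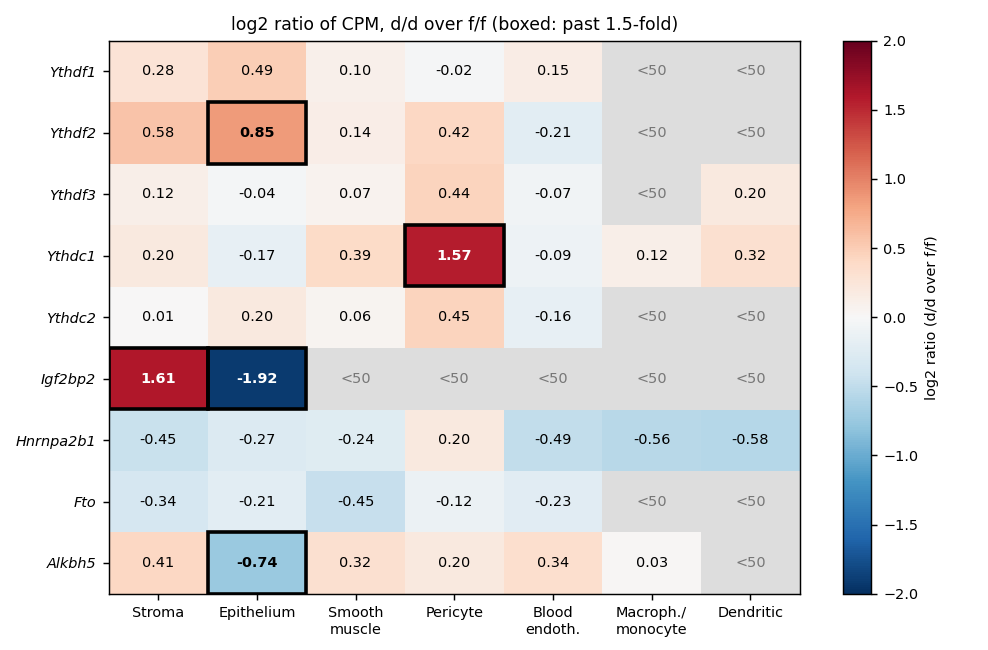
log2 ratio of CPM, d/d over f/f, for each of the 9 genes (rows) in the 7 classes (columns), red where d/d was higher and blue where f/f was higher. Boxes mark the 5 pairs past 1.5-fold, and grey cells have fewer than 50 UMIs in the library with the higher CPM.

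The cytoplasmic readers came first in the comparison. YTHDF2, which recruits the CCR4-NOT deadenylase to methylated transcripts, was the family member that differed most between the libraries. In epithelium Ythdf2 rose to 145 CPM (603 UMIs) in d/d cells, against 80.0 CPM (173 UMIs) in f/f cells, a ratio of 1.81 (95% interval 1.52 to 2.15). In stroma it had 101 CPM in d/d cells and 68.0 CPM in f/f cells, a ratio of 1.49 (1.39 to 1.60) just under the threshold. With every cell thinned to 2000 UMIs, Ythdf2 was detected in 25.7% of 144 d/d and 11.8% of 170 f/f epithelial cells, and in 17.0% of 1597 d/d and 12.4% of 4408 f/f stromal cells. The share was thus higher in d/d cells of both classes at equal depth. The log2 ratio of Ythdf2 was above 0 in 6 and below 0 in 7 of the 13 clusters with at least 50 cells in each library. Its ratio interval lay above 1 in 5 of them and below 1 in 0. In pericytes the values were 61.2 CPM in d/d and 45.8 CPM in f/f cells (ratio 1.33, 1.06 to 1.69). In smooth muscle they were 55.8 and 50.7 CPM, and in dendritic cells 58.0 and 56.6 CPM. Blood endothelium had 57.4 CPM in d/d and 66.4 CPM in f/f cells (log2 ratio -0.21), and macrophages or monocytes had 45.4 and 50.7 CPM.

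Ythdf1 is a paralog whose product has been tied to translation of methylated transcripts. It had 85.2 CPM in d/d and 70.1 CPM in f/f stroma, and 74.1 and 52.7 CPM in epithelium, with log2 ratios of 0.28 and 0.49. The direction did not hold within the stromal cluster led by Clec3b and C3, which both libraries shared, where Ythdf1 had 66.6 CPM in d/d and 80.2 CPM in f/f cells (log2 -0.27, interval -0.62 to 0.09). Over the 13 clusters with at least 50 cells in each library, its log2 ratio was below 0 in 9. Its ratio intervals included 1 in smooth muscle (75.8 and 70.7 CPM), pericytes (78.8 and 79.7 CPM), blood endothelium (71.5 and 64.2 CPM), macrophages or monocytes (50.5 and 64.1 CPM) and dendritic cells (34.8 and 44.6 CPM). Ythdf3, thought to act with both paralogs, had the flattest profile of the family. It was highest in epithelium in both libraries, at 104 CPM in d/d and 107 CPM in f/f cells, and lay between 65.2 and 90.0 CPM in the other 6 classes. Its widest log2 ratio, 0.44, was in pericytes, with 90.0 CPM in d/d and 66.4 CPM in f/f cells. After thinning, at least 1 of the 3 transcripts was detected in 39.8% of d/d and 33.5% of f/f stromal cells, and in 45.8% and 37.1% of epithelial cells. At least 2 of them shared a cell in 6.57% and 4.76% of stromal cells and in 13.2% and 6.47% of epithelial cells.

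The epithelial difference was read against the makeup of the class, because the libraries held different epithelial cells. Among f/f cells 105 were glandular-like and 73 luminal-like by their markers, whereas 146 of the 147 d/d cells sat in sub-clusters that matched neither. In the clustering of all cells, the 147 d/d cells shared a cluster with the 105 glandular-like f/f cells, while the 73 luminal-like cells sat in another. The d/d cells were also deeper, with a median of 16171 UMIs, against 9289 UMIs in f/f. Ythdf2 stood at 145 CPM in the d/d cells, against 91.7 CPM in luminal-like and 69.0 CPM in glandular-like f/f cells, so it passed 1.5-fold against either kind (log2 0.66 and 1.07). Ythdf1 stood at 73.9 CPM in the d/d cells, against 40.1 CPM in luminal-like cells (log2 0.88) and 64.5 CPM in glandular-like cells (log2 0.20). Ythdf3 had 104 CPM in the d/d cells, against 103 and 110 CPM. Against luminal-like cells 51.2% of all genes passed 1.5-fold and against glandular-like cells 40.7%, so passing was common there.

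**Figure D3:**
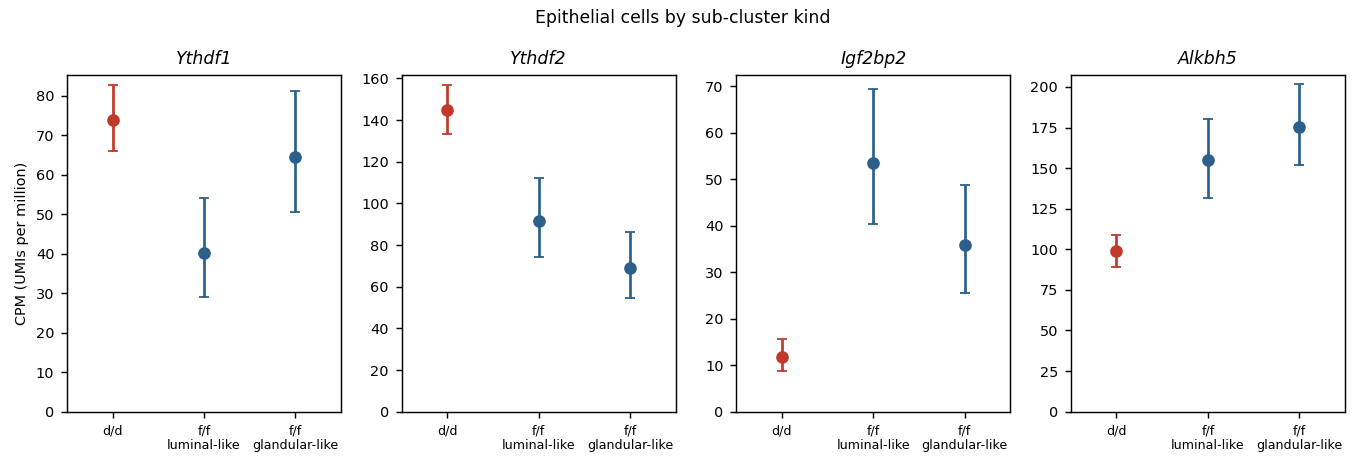
CPM (y axis, linear, from 0) of Ythdf1, Ythdf2, Igf2bp2 and Alkbh5 in the 146 d/d epithelial cells that match neither kind (red) and in luminal-like and glandular-like f/f cells (blue); bars are exact 95% Poisson intervals. Ythdf2 is higher, and Igf2bp2 and Alkbh5 are lower, in the d/d cells than in either f/f kind.

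YTHDC1, the nuclear reader, binds methylated transcripts in the nucleus and steers splice-site choice and export with SR proteins. Its transcript gave the largest rise after that of Igf2bp2 in stroma. In pericytes Ythdc1 rose to 359 CPM (1855 UMIs) in d/d cells, against 121 CPM (254 UMIs) in f/f cells, a ratio of 2.96 (2.59 to 3.39), in a class where 37.7% of all genes passed. Smooth muscle had 118 CPM in d/d and 90.1 CPM in f/f cells, and stroma 126 and 110 CPM. Epithelium had 236 CPM in d/d and 265 CPM in f/f cells, a lean that turned round under both other scalings, blood endothelium 133 and 142 CPM, macrophages or monocytes 128 and 118 CPM, and dendritic cells 103 and 82.3 CPM. Pericytes were thus the highest class in the d/d library and epithelium in the f/f library, where pericytes ranked below epithelium and blood endothelium. Of the 1855 d/d UMIs in pericytes, 1492 came from 1 cluster that was also high in smooth muscle markers. The d/d rank of pericytes rested on that cluster, which is described next.

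The pericyte rise was seen in 1 of the 3 clusters of that class, while another had too few f/f cells to compare. This cluster was led by Mustn1, Rasl11a and Pln and scored nearly as high for smooth muscle markers as for pericyte markers, with mean log2 values of 3.20 and 3.62 over the median cluster. In it Ythdc1 had 560 CPM in 585 d/d cells, against 175 CPM in 66 f/f cells (log2 1.68). Of the 5 members with enough UMIs in this cluster, Ythdf3 (log2 0.79), Ythdc2 (0.78) and Hnrnpa2b1 (0.59) also rose, though Ythdf3 had 14 and Ythdc2 4 UMIs in f/f cells. The cluster held 2662677 UMIs in d/d and only 268979 in f/f cells, so genes lower in d/d seldom reached the floor. Ythdf1 (log2 -0.43), Ythdf2 (-0.27) and Fto (-0.41) were lower in d/d, with 27, 15 and 18 f/f UMIs, and were left out by it. The floor thus favours genes higher in d/d, also in the medians that follow. The median log2 ratio was 0.78 over these 5 members and 0.32 over all genes measured in the cluster, of which 38.3% passed in either direction. The cluster led by Rgs5 and Higd1b had 113 CPM in 103 d/d cells and 110 CPM in 278 f/f cells (log2 0.04). The cluster led by Ccl11 and Rgs5 had 154 CPM in 505 d/d cells, with only 34 f/f cells beside it. Outside pericytes, T cells had 265 CPM in 257 d/d and 131 CPM in 52 f/f cells (log2 1.01, 0.18 to 1.99). They had 12 f/f UMIs of Ythdc1, and the median log2 ratio over all genes measured in them was 0.44. Over the 13 clusters with at least 50 cells in each library, the Ythdc1 log2 ratio was above 0 in 10. The d/d library gave 585 of the 651 cells of the Mustn1 cluster, so a property of that library and of that kind of cell cannot be told apart. Where the cells were clustered otherwise, with the libraries apart or with a floor of 2000 UMIs, the cluster fell in with smooth muscle. The rise then appeared there, at log2 1.31 and 1.22, and the pericyte log2 ratio was as low as 0.37.

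Within the Mustn1 cluster the d/d transcripts were spread unevenly over cells. At least 5 Ythdc1 UMIs were found in 97 of 585 d/d cells (16.6%, Clopper-Pearson 13.7% to 19.8%) and in 0 of 66 f/f cells, which allows a share of up to 4.55% by 3 counts and 5.44% by the Clopper-Pearson limit. Those 97 cells held 65.3% of the Ythdc1 UMIs, the highest had 37, and 207 d/d cells had none. The bound of 5 UMIs was chosen after the values were seen. After thinning to 2000 UMIs, 68 of 545 d/d cells (12.5%) still had at least 3 Ythdc1 UMIs, against 0 of 63 f/f cells. Epithelium, where 76 of 147 d/d and 40 of 178 f/f cells had 5 or more, kept only 2 of 144 d/d and 3 of 170 f/f cells at 3 or more after thinning.

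The 97 cells with many Ythdc1 UMIs were set beside the other 488 d/d cells of the cluster. Hnrnpa2b1 stood at 1322 CPM in them, against 749 CPM in the other cells. Ythdf1, Ythdf2, Ythdf3 and Alkbh5 stood at 77.2, 52.0, 99.0 and 168 CPM in the 97 cells, against 73.5, 44.5, 87.6 and 160 CPM in the others. Ythdc2 stood at 35.2 CPM in the 97 cells and 22.7 CPM in the others, and Fto at 40.3 and 53.2 CPM. The summed level of 18 immediate early and heat shock genes, which dissociation can induce, was 27492 CPM in them, against 28011 CPM in the others. The summed pericyte markers stood at 2474 CPM in the 97 cells and 4256 CPM in the others, and the summed smooth muscle markers at 14611 and 14907 CPM. Their median depth was 5550 UMIs, against 3948.5 UMIs. Between the libraries, the immediate early sum of the cluster was 27895 CPM in d/d and 15611 CPM in f/f cells, and its part in the Ythdc1 difference was not tested.

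**Figure D4:**
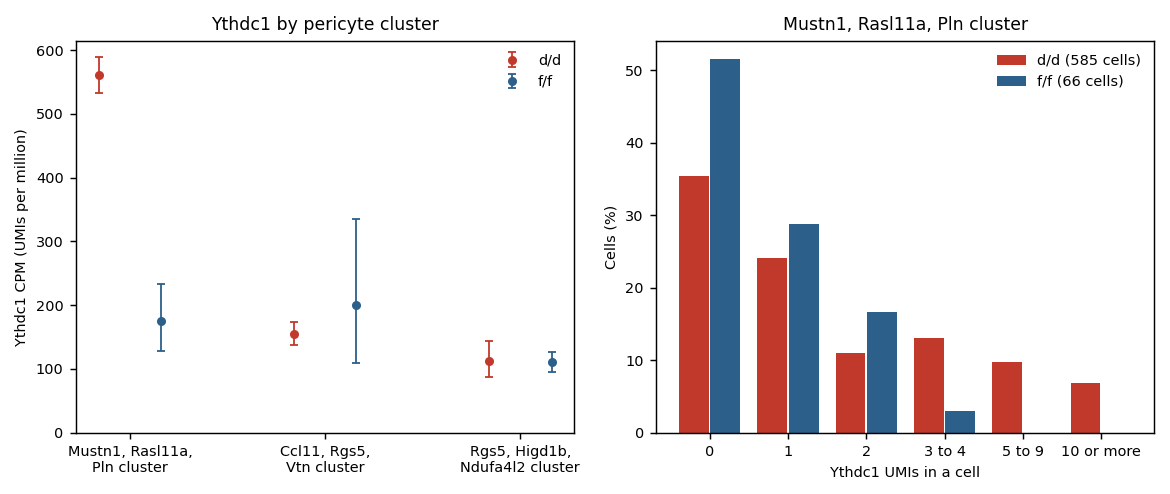
Left, Ythdc1 CPM (y axis, linear, from 0) with exact 95% Poisson intervals in the 3 pericyte clusters, named by leading genes, d/d in red and f/f in blue. Right, the share of cells of the Mustn1, Rasl11a, Pln cluster (y axis, %) by the number of Ythdc1 UMIs in the cell (x axis, binned), with 585 d/d and 66 f/f cells; only d/d cells reach 5 or more.

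The promoters of the 4 genes that passed 1.5-fold are shown because these are the members whose levels parted between the libraries. Each is the window from 250 bases before to 50 bases after the transcript start in RefSeq (GRCm38.p6), written 5′ to 3′ on the gene's strand. Of the 9 genes, 7 were matched in the promoter table, and Ythdf3 and Ythdc2 were not. Capitals mark TGACG, the core of the cAMP response element, on either strand. The Ythdc1 window lies at chr5:86804016-86804315 on the plus strand, Ythdf2 at chr4:132212207-132212506 on the minus strand, Igf2bp2 at chr16:22163250-22163549 on the minus strand, and Alkbh5 at chr11:60537433-60537732 on the plus strand.
Ythdc1: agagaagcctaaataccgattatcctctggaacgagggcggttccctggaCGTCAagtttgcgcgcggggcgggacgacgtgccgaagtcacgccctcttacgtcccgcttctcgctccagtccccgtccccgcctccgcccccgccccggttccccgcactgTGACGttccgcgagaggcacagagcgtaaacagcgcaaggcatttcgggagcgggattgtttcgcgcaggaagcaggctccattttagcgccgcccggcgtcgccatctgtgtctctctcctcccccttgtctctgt
Ythdf2: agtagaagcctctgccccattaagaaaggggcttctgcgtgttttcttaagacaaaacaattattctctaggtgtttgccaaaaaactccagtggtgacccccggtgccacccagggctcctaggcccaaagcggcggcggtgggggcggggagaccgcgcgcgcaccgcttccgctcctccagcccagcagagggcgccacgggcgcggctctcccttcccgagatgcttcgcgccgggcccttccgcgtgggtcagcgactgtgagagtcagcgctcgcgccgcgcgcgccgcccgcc
Igf2bp2: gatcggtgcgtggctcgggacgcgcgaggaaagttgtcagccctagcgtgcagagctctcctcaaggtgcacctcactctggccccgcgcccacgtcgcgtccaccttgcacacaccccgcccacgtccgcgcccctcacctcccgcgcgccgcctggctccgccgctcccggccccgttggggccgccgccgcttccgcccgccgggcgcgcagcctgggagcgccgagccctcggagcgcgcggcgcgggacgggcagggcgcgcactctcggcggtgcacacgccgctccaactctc
Alkbh5: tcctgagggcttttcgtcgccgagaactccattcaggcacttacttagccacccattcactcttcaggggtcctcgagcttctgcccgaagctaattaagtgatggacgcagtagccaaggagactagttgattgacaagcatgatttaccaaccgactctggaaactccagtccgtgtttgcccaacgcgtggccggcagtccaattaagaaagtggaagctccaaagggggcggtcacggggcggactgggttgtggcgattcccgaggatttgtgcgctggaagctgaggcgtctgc
TGACG occurred at 2 places in the Ythdc1 window and in none of the other 3, while 20.8% of the 32851 windows in the table hold it. It also occurred in the windows of Ythdf1 and Hnrnpa2b1, which did not pass in any class, so 3 of the 7 matched members hold it. The AP-1 motif TGANTCA (7.81% of all windows) and the E-box CACGTG (7.15%) were in none of the 4, so no hit of TGACG overlapped another of these motifs. The windows differed in CG dinucleotides, with 35 in Ythdc1, 32 in Ythdf2, 47 in Igf2bp2 and 18 in Alkbh5, against a median of 7 over all windows. The Igf2bp2 window held more CG than 98.6% of all windows did.

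Ythdc2 encodes an RNA helicase with a YTH domain that is best known from meiosis. It was low throughout, at 12.9 to 30.9 CPM over the 7 classes and both libraries. It was highest in blood endothelium in both, at 27.7 CPM in d/d and 30.9 CPM in f/f cells, and lowest in epithelium, at 14.9 and 12.9 CPM. Stroma had 20.3 and 20.2 CPM. No class gave a ratio interval that left out 1, and the widest log2 ratio among classes with enough UMIs, 0.45 in pericytes (26.1 CPM in d/d and 19.1 CPM in f/f cells), belonged to a ratio of 1.37 with an interval starting at 0.955.

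IGF2BP2 binds target transcripts through KH domains and is held to stabilise methylated ones. In f/f tissue Igf2bp2 had 44.4 CPM in epithelium (96 UMIs) and at most 3.43 CPM in each of the other 6 classes. In epithelium it fell to 11.8 CPM (49 UMIs) in d/d cells, a ratio of 0.265 (0.184 to 0.377), in a class where 40.2% of all genes passed. It stood at 11.8 CPM in the d/d cells that matched neither kind, against 53.5 CPM in luminal-like cells (log2 -2.18) and 35.8 CPM in glandular-like cells (log2 -1.60, with 40 f/f UMIs and so under the floor). After thinning it was found in 0 of 144 d/d epithelial cells, which allows a share of up to 2.08%, and in 5.29% of 170 f/f cells. Epithelium was its highest class in both libraries.

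In stroma the direction was the opposite. Igf2bp2 rose to 5.29 CPM (69 UMIs) in d/d cells, against 1.74 CPM (58 UMIs) in f/f cells, a ratio of 3.05 (2.12 to 4.40), where 34.4% of all genes passed. The transcript was found in 3.69% of d/d and 1.21% of f/f stromal cells, and in 0.995% and 0.205% of blood endothelial cells, taken as background. Median depth was 6969.5 UMIs in d/d and 6663.5 in f/f stroma, and 5924 and 6130 UMIs in blood endothelium. After thinning the stromal shares were 1.57% and 0.363%. The stromal clusters differed between the libraries. In the cluster shared by both, led by Clec3b and C3, Igf2bp2 had 11.9 CPM in 507 d/d cells and 5.68 CPM in 345 f/f cells, with 25 and 9 UMIs and a log2 interval of -0.08 to 2.35. The cycling stromal cluster, also shared, leaned the other way, at 2.90 CPM in d/d and 3.87 CPM in f/f cells, with 2 and 15 UMIs. The main d/d cluster, led by A2m and Mmp2, had 4.15 CPM, while the 3 main f/f clusters had 0.822, 1.08 and 2.05 CPM. The cluster led by Clec3b held 29.7% of d/d and 7.56% of f/f stromal cells. In smooth muscle, pericytes, blood endothelium and macrophages or monocytes the Igf2bp2 ratio was also above 1, at 1.31, 4.46, 5.79 and 2.42. Each of these was under the floor, with 6, 1, 1 and 1 f/f UMIs, and each interval included 1. Dendritic cells gave 0 Igf2bp2 UMIs in d/d, which allows up to 3.86 CPM, and 2 UMIs in f/f.

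HNRNPA2B1, an hnRNP protein proposed to read the mark in microRNA precursors and to change splicing, was the most abundant of the 9 transcripts in every class and both libraries. It did not pass 1.5-fold in any class, yet it leaned one way. Hnrnpa2b1 had 460 CPM in d/d and 628 CPM in f/f stroma (ratio 0.732, 0.711 to 0.753), 551 and 775 CPM in blood endothelium (0.711, 0.675 to 0.748), 376 and 555 CPM in macrophages or monocytes, and 397 and 592 CPM in dendritic cells. Epithelium had 495 CPM in d/d and 596 CPM in f/f cells, and smooth muscle 481 and 569 CPM. Its log2 ratio was below 0 in 6 of 7 classes, under totals, under TMM scaling and under totals without mitochondrial, ribosomal protein and haemoglobin genes. Under TMM scaling the ratio lay near 0 in several classes, at -0.07 in epithelium, -0.07 in smooth muscle, -0.10 in macrophages or monocytes and -0.18 in dendritic cells, while it was -0.40 in stroma and -0.45 in blood endothelium. Pericytes were the exception under each scaling, at 711 CPM in d/d and 620 CPM in f/f cells, but without the Mustn1 cluster their log2 ratio was -0.23.

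The same lean was present cluster by cluster. Among 13 clusters with at least 50 cells in each library, the Hnrnpa2b1 log2 ratio was below 0 in 11, each with a ratio interval below 1. It passed 1.5-fold in 1 of these 11, the dendritic cluster led by Cd209a, with a log2 ratio of -0.69, where 36.9% of all genes passed. The 2 others were the Mustn1 cluster, where it passed at 877 CPM in d/d and 584 CPM in f/f cells, and the T cells, at 642 and 536 CPM. These clusters come from the same pair of libraries and are not independent. Within stroma it was highest in the cycling cluster led by Cenpf and Prc1, at 609 CPM in d/d and 902 CPM in f/f cells. The shared Clec3b cluster had 430 and 489 CPM. The main d/d cluster had 454 CPM, and the 3 main f/f clusters had 576, 653 and 571 CPM. The cycling cluster held 50 of 1706 d/d and 365 of 4564 f/f stromal cells.

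**Figure D5:**
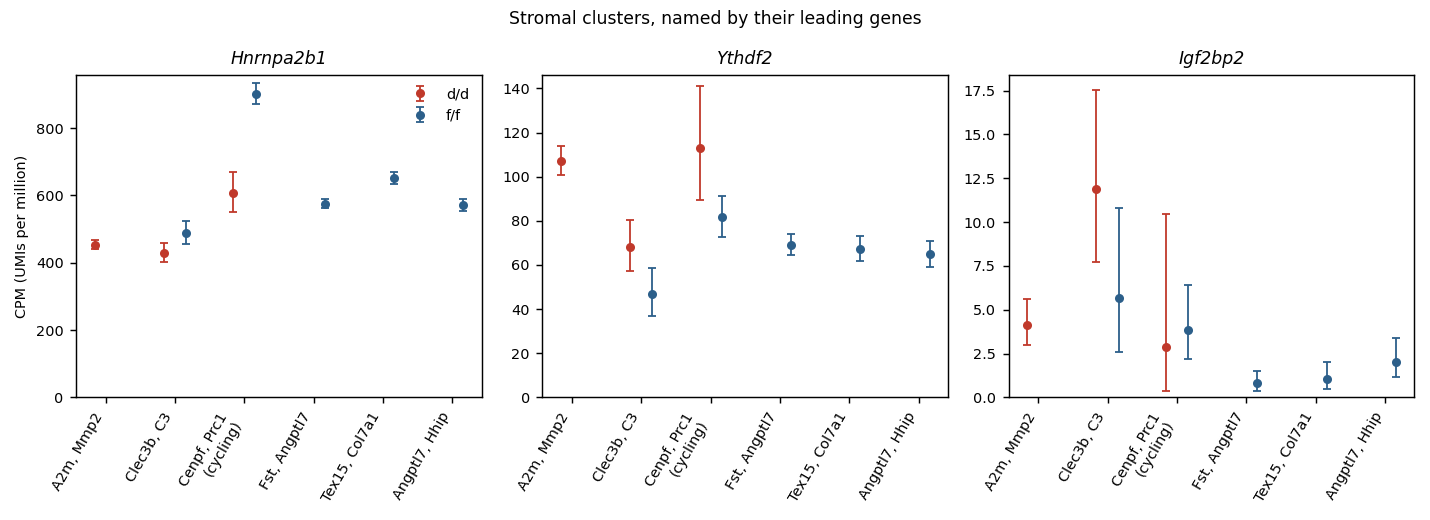
CPM (y axis, linear, from 0) of Hnrnpa2b1, Ythdf2 and Igf2bp2 in the stromal clusters, named by leading genes (x axis), d/d in red at the left and f/f in blue at the right; bars are exact 95% Poisson intervals, and library and cluster pairs with fewer than 30 cells are left out. Only the clusters led by Clec3b and C3 and by Cenpf and Prc1 have points from both libraries.

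FTO, an eraser that also acts on the cap-adjacent mark m6Am, had lower values in d/d in every compared class. Fto had 47.4 CPM in d/d and 60.1 CPM in f/f stroma (ratio 0.789, 0.720 to 0.864), and 48.2 and 66.1 CPM in smooth muscle (0.730, 0.598 to 0.896). Macrophages or monocytes had 31.0 CPM in d/d and 62.6 CPM in f/f cells, and dendritic cells 14.2 and 41.2 CPM, with 43 and 42 UMIs in the first and 11 and 24 in the second, under the floor of 50. Epithelium had 25.9 and 30.1 CPM, pericytes 51.7 and 56.3 CPM and blood endothelium 40.1 and 47.0 CPM, and the ratio intervals of these 3 included 1. The log2 ratio was below 0 in 7 of 7 classes, but under TMM scaling it was above 0 in pericytes. In the shared Clec3b stroma it was -0.01, at 64.7 CPM in d/d and 65.0 CPM in f/f cells, so the stromal gap was not seen there. The cycling stromal cluster, also shared, did show it, at 37.7 CPM in d/d and 63.8 CPM in f/f cells. The ratio there was 0.591 (0.378 to 0.886), with 26 d/d UMIs and a median log2 ratio of -0.36 over all genes measured. Over the 13 clusters with at least 50 cells in each library, the Fto log2 ratio was below 0 in 12.

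ALKBH5, the nuclear eraser specific for m6A, went the other way in most classes. Alkbh5 had 149 CPM in d/d and 112 CPM in f/f stroma (ratio 1.33, 1.26 to 1.41), 170 and 136 CPM in smooth muscle (1.25, 1.10 to 1.43), and 125 and 98.4 CPM in blood endothelium (1.27, 1.12 to 1.43). Pericytes had 155 and 135 CPM, macrophages or monocytes 95.9 and 94.0 CPM, and dendritic cells 48.9 and 82.3 CPM. In macrophages or monocytes the direction turned round with totals without mitochondrial, ribosomal protein and haemoglobin genes. Epithelium also stood against this lean, and there Alkbh5 fell to 99.3 CPM (414 UMIs) in d/d cells, against 166 CPM (358 UMIs) in f/f cells, a ratio of 0.600 (0.520 to 0.693). It no longer passed 1.5-fold under TMM scaling (log2 -0.54), with totals without mitochondrial, ribosomal protein and haemoglobin genes (-0.53) or after thinning (-0.33). It stood at 98.7 CPM in the d/d cells that matched neither kind, against 155 CPM in luminal-like and 176 CPM in glandular-like f/f cells. In the shared Clec3b stroma it had 165 CPM in d/d and 152 CPM in f/f cells (log2 0.11), with a ratio interval of 0.915 to 1.28. The cycling stromal cluster, also shared, had 98.5 CPM in d/d and 110 CPM in f/f cells (log2 -0.16, ratio interval 0.683 to 1.16). The stromal gap was thus not clear in either shared cluster. After thinning Alkbh5 was detected in 26.1% of d/d and 20.4% of f/f stromal cells, and in 21.5% and 28.2% of epithelial cells.

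Summed over the 9 genes, stroma had 1069 CPM in d/d cells and 1139 CPM in f/f cells, epithelium 1205 and 1354 CPM, and pericytes 1535 and 1144 CPM. The sum was below the f/f value in 6 of 7 classes, and in 3 of 7 under TMM scaling, and Hnrnpa2b1 made up much of it. Without Hnrnpa2b1 the stromal sum was 609.5 CPM in d/d and 510.7 CPM in f/f cells (log2 0.26) and the pericyte sum 824 and 524 CPM (log2 0.65). Blood endothelium then had a log2 ratio of 0.01. The 7 compared classes were also combined, each weighted in both libraries by its f/f UMI total, so that stroma weighed most. The log2 ratio was then 0.50 for Ythdf2, 0.43 for Igf2bp2, 0.32 for Alkbh5, -0.34 for Fto and -0.40 for Hnrnpa2b1.

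Other values set beside these results are given once. The summed immediate early and heat shock genes stood in stroma at 14080 CPM in d/d and 3885 CPM in f/f cells, in epithelium at 16264 and 11764 CPM, in pericytes at 24791 and 7886 CPM, and in blood endothelium at 24758 and 8272 CPM. They stood in smooth muscle at 17420 and 7964 CPM and in macrophages or monocytes at 24170 and 9641 CPM. In dendritic cells they were about level, at 17814 and 17291 CPM. Malat1, a nuclear RNA, had 10195 CPM in d/d and 25059 CPM in f/f epithelium, and 45102 and 28649 CPM in pericytes. Summed stromal markers stood at 3.24% of their stromal level in d/d and 38.7% in f/f macrophages or monocytes, and at 27.8% and 59.7% in pericytes. All 10 stromal markers had UMIs in each of the 7 classes in both libraries. Their part in the differences was not tested.

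The transcripts with the most similar profile were sought over the 14 sums of a class and library, among 11028 genes, by Pearson correlation of log2(CPM + 1), as a description. For Ythdf2 they were Txnl4a (r = 0.94), Polr2e (0.94) and Mrps7 (0.90). For Ythdc1 they were Sap18 (0.92), Bcl2l13 (0.88) and Cdk13 (0.83). For Alkbh5 they were Tmod1 (0.93), Klhl26 (0.91) and Rnf11 (0.90), and for Fto Telo2 (0.96), Zfp770 (0.96) and Tmem18 (0.95). Ythdf1 was closest to AC165953.2 (0.98), Pigk (0.95) and Ndufaf4 (0.95), Ythdf3 to Msx1 (0.93), Wnk2 (0.92) and Cdkl1 (0.91), and Ythdc2 to Arhgap23 (0.89), Foxf1 (0.88) and Wdfy1 (0.87). The points share 2 libraries and the same clustering.

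Genes linked to the readers and erasers were taken from lists, and the values in parentheses are log2 ratios, d/d over f/f. Over all genes, 14.1% rose and 20.3% fell in stroma, 17.5% rose and 22.7% fell in epithelium, and 14.2% rose and 11.1% fell in smooth muscle. Of 21 genes of the CCR4-NOT deadenylase, which YTHDF2 recruits, and of other decay factors, 4 rose and 4 fell in stroma. The list median log2 was -0.33, against -0.16 over all genes. The risers were the antiproliferative adaptors Tob1 (1.66), Btg2 (1.27), Btg1 (1.12) and Tob2 (0.85), and those that fell were Ddx6 (-0.69), Cnot10 (-0.75), Pan2 (-0.88) and Cnot3 (-0.60). In epithelium, of 19 with enough UMIs, Cnot9 rose (0.73) and Ddx6 (-1.10), Cnot3 (-1.10), Btg1 (-0.75) and Cnot10 (-0.70) fell, with a median of -0.20 against -0.05. The log2 interval of Cnot9, with 20 f/f UMIs, was -0.01 to 1.53 and so included 0. In smooth muscle, also of 19, Tob1 (1.51), Btg1 (1.31) and Tob2 (1.13) rose and Cnot10 (-0.73) and Cnot3 (-0.66) fell, with a median of -0.11 against 0.03. Btg1 thus went opposite ways in epithelium and in the other 2 classes.

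Of the 7 splicing and export partners of YTHDC1, Nxt1, a cofactor of the export receptor NXF1, rose in stroma (1.54), epithelium (1.97) and smooth muscle (0.75). Srsf1 fell in smooth muscle (-0.63), and no other partner passed in these 3 classes. The list medians were 0.00, -0.04 and -0.02. Of the other proposed readers, 3 of 9 fell in stroma, namely Rbmx (-1.40), Fxr1 (-0.66) and G3bp1 (-0.63). Fxr1 (-1.40) and Fxr2 (-0.70) fell in epithelium among 8, Lrpprc (-0.79) fell in smooth muscle among 8, and none rose in any of the 3, with medians of -0.43, -0.20 and -0.35.

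Of the 13 writer genes, Rbm15, which guides the complex to its sites, rose in stroma (0.85), epithelium (1.23) and smooth muscle (0.93). Wtap rose in stroma (0.82) and Zc3h13 (0.59) and Cbll1 (0.60) rose in epithelium, while Mettl14 (-2.57), Mettl3 (-1.19) and Mettl5 (-1.003) fell in stroma. The medians were -0.20 of 13 genes, 0.42 of 8 and 0.17 of 10. Of the 7 other AlkB dioxygenases, relatives of the erasers that act on other substrates, Alkbh1 (-0.97) and Alkbh6 (-0.66) fell in stroma. In epithelium Alkbh3 (1.05) and Alkbh2 (0.82) rose and Alkbh8 (-0.89) and Alkbh6 (-0.82) fell among 6, and in smooth muscle Alkbh8 (-0.80) fell among 3, with medians of -0.26, -0.34 and 0.07.

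The 20 other hnRNP genes were mostly under 1.5-fold, as Hnrnpa2b1 was. Hnrnpm (-0.79), Hnrnph2 (-0.70) and Hnrnpul1 (-0.61) fell in stroma, and Hnrnpll (-1.42) and Hnrnph2 (-0.74) fell in epithelium, where Hnrnpa0 (0.77) and Hnrnpa1 (0.67) rose. Hnrnpm (-0.74) fell and Hnrnpa1 (0.65) rose in smooth muscle, and the medians were -0.31, -0.19 and -0.05. Of the 18 immediate early and heat shock genes, 18 rose in stroma, 15 in smooth muscle and 5 in epithelium, where 2 fell. Those with the strongest rise were Egr3 (3.56), Ier3 (3.39), Nr4a1 (2.67) and Hspa1a (2.58) in stroma and Egr3 (2.70), Nr4a1 (1.99), Egr1 (1.72) and Hspa1a (1.64) in smooth muscle. In epithelium Hspa1a (2.35), Hspa1b (1.63), Klf6 (0.997) and Hsp90aa1 (0.70) rose most, while Dusp1 (-2.23) and Ier2 (-0.69) fell. The list medians were 2.34, 1.09 and 0.27.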

How the data were processed

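The deposited tables of raw UMI counts per gene and barcode were used, 1 per genotype, with no normalization per the file headers. The submitters' processing notes name Cell Ranger 3.0.1 and mm10, while the matrix headers name cellranger 6.0.1. Cells were kept with at least 1000 UMIs, 500 genes and at most 20% mitochondrial UMIs. The barcodes with the highest Scrublet scores, 0.8% per 1000 barcodes, were marked as doublets, which removed 348 d/d and 515 f/f cells (scanpy 1.11.5). Cells were clustered by Leiden at resolution 1 on 2000 variable genes and 30 components without integration, and clusters were named by marker lists, with a scoring rule set after the data were seen. Clusters that could not be named held 38 d/d and 250 f/f cells and were left out of the classes. CPM were computed from the summed UMIs of a class in a library, over the total of that class. CPM of 3′ tags were not divided by transcript length, since each molecule gives 1 tag. Thinning drew 2000 UMIs per cell and left out shallower cells. TMM factors came from edgeR 4.0.16, which served for scaling only. The calling step was tested on simulated data. The 9 members, the gene lists and the thresholds were chosen with earlier results of these data known. List genes were named where they passed 1.5-fold in stroma, epithelium or smooth muscle, at most 4 per direction, list and class by the interval bound nearest 1. The genes with profiles most like that of Hnrnpa2b1 are not reported here. Promoters were read from RefSeq windows of GRCm38.p6.

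In the GENCODE annotation of GRCm38, Ythdf1 lies at chr2:180904377-180920949 (minus strand), Ythdf2 at chr4:132184912-132212303 (minus), Ythdf3 at chr3:16183212-16217037 (plus), Ythdc1 at chr5:86804221-86836659 (plus), Ythdc2 at chr18:44827746-44889724 (plus), Igf2bp2 at chr16:22059009-22163299 (minus), Hnrnpa2b1 at chr6:51460932-51469894 (minus), Fto at chr8:91313525-91668439 (plus) and Alkbh5 at chr11:60536381-60558512 (plus). All are protein-coding. Gm43055 overlaps Ythdc1 on the same strand and had 0 UMIs in the kept cells of both libraries, and 4831440D22Rik and Gm3235 overlap Fto on the other strand, with 4 and 0 UMIs in each library.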

Additional observations from a re-analysis of the deposited data

How the results depend on the processing

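No paired analysis was possible because each genotype has 1 library. The 5 pairs past 1.5-fold became 12 under TMM scaling, 3 with cells thinned to 2000 UMIs (Ythdc1 in pericytes, and Hnrnpa2b1 in macrophages or monocytes and in dendritic cells), 8 with a floor of 20 UMIs and 3 with a floor of 100 UMIs. Under the other settings, among them 2 chosen after seeing the data, the count was 4 to 7. The share of all genes that passed is given for the main setting only, at 33.2% of gene and class pairs. The changes in count are therefore not read as a result about the members. The classes with a summed level below the f/f value, 6 of 7, became 3 under TMM scaling. TMM moved the median log2 ratio of all genes to 0.56 (main 0.10) in macrophages or monocytes, 0.30 (main -0.10) in dendritic cells, 0.15 (main -0.05) in epithelium, 0.20 (main 0.03) in smooth muscle and 0.13 (main -0.11) in pericytes. The cause was not tested. Ythdf2 and Igf2bp2 in epithelium and Igf2bp2 in stroma kept their direction and stayed past 1.5-fold in each of the 7 (Igf2bp2 in epithelium 6) settings of scaling, filters, clustering and thinning that gave a ratio, without the floor of UMIs, with log2 ratios of 0.84 to 1.28, -1.94 to -1.71 and 1.57 to 2.22. Alkbh5 in epithelium (-0.74 to -0.33) passed in 4 of 7 and Ythdc1 in pericytes (0.37 to 1.81) in 5 of 7. Without the Mustn1 cluster, pericyte Ythdc1 did not pass and Ythdf2 did (log2 0.80). No direction of a called pair was reversed. Depth limited Igf2bp2, which reached 50 UMIs in the higher library in only 2 of the 7 classes.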
